A study of Homo sapiens with 16 samples.

Results

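AML-193, a monocytic acute myeloid leukaemia (AML) cell line, was compared in its vehicle-treated state with 3 other AML cell lines. These were HNT-34, known for a rearranged MECOM locus, KG1a, an undifferentiated subline of KG1, and the promyelocytic line HL60. The AML-193 side consisted of 2 arrays, out of 8 vehicle arrays and 16 arrays in all, and was chosen by the labelled cell line and treatment. All 8 vehicle samples received dimethyl sulphoxide as vehicle on the schedule used for azacitidine (AZA), a cytidine analogue that traps DNA methyltransferases. The other 8 arrays held the same lines after 0.5 µM AZA on each of 3 days, and all 16 samples then spent 4 days without drug. The cells grew in RPMI medium made for isotope labelling, here with the light forms of lysine and arginine, and RNA was taken from frozen pellets. No genotype, passage or growth factor is given in the labels, and each line descends from a single patient, so line, donor and culture history cannot be told apart. Transcripts were measured on Affymetrix U133 Plus 2.0 arrays, and all values are log2 signals. A difference is the AML-193 mean minus the mean of the 3 other lines, each weighted equally, with its standard error from a fit with limma.

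Myeloid cells pass from stem cells through committed progenitors to granulocytes and monocytes. At the promyelocyte and early monocyte stages they make the serine proteases and antimicrobial proteins of the azurophil granules, and later stages add S100 proteins, pattern receptors and lysosomal enzymes. Stem and progenitor cells carry receptors such as KIT and FLT3 and transcription factors such as GATA2 and MEIS1, which are shut down on the way. AML lines are caught at different points of this path. AML-193 is known as a line whose growth depends on cytokines such as GM-CSF.

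The 2 AML-193 vehicle arrays stood apart from the rest in one technical measure. The signal from the 3' end minus that from the 5' end of ACTB and GAPDH, which grows as RNA is degraded, was 1.59 and 0.94 on the log2 scale in AML-193 vehicle RNA. It lay between -0.08 and 0.12 on the 6 other vehicle arrays. With AZA it was 0.23 and 0.17 in AML-193 and 0.84 and 0.61 in HL60, so the order of the lines in this measure was another one in the AZA arm. The plot of the RNA control probe sets shows all 16 values. The part of RNA quality in the differences was not tested as a cause. Whether the 2 arrays of a line stand for separate cultures is not given in the labels, so the p-values cover the spread between arrays alone, and that spread may be technical. Array pairs of 1 line had correlations of 0.995 to 0.997 over the probe sets with 1 gene symbol. Over the genes tested, 98.3% of the variance lay between lines.

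**Figure D1:**
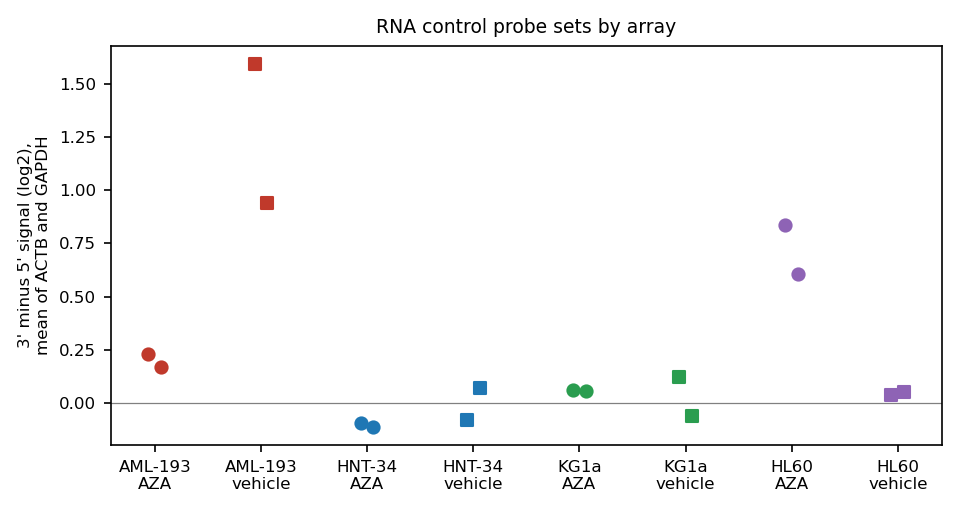
Difference between the 3' and 5' control signals (log2, mean of ACTB and GAPDH, vertical axis) for the 16 arrays, by line and treatment (horizontal axis); circles are AZA arrays and squares vehicle arrays. The AML-193 vehicle arrays, at 1.59 and 0.94, lie above all others, and the other vehicle arrays lie near 0.

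Of 13656 genes tested, 4628 (33.9%) were higher and 4613 (33.8%) lower in AML-193 than in the mean of the other lines, at an adjusted p under 0.05. Together these were 67.7% of all genes. Against single lines, 32.2% were higher and 32.2% lower than in HNT-34, 33.3% and 29.7% than in KG1a, and 31.5% and 31.8% than in HL60. With so many calls as the background, a stricter rule was used to set genes apart. It asked for a call against the mean and against each of the 3 lines, with at least a 2-fold difference from each. By this rule 528 genes (3.87%) were higher and 369 (2.7%) lower in AML-193. Both AML-193 arrays lay outside the range of the other 6 in all of these genes, which the rule itself makes likely. Over all 13656 genes tested, both lay above the other 6 arrays in 3102 and below them in 2720. With the 3' minus 5' control signal as a covariate, 1624 genes (11.9%) were called higher and 1456 (10.7%) lower, 22.6% in all, and 427 (3.13%) and 303 (2.22%) were set apart. The sign was that of the fit without it in 525 of the 528 and 368 of the 369 genes. In 121 of the higher and 81 of the lower genes the difference was at least 4-fold from every line. HL60 was the other line nearest to AML-193 for 294 of the 528 higher and 164 of the 369 lower genes. Over the probe sets with 1 gene symbol AML-193 arrays correlated with HL60 arrays at 0.932 to 0.939, with KG1a at 0.908 to 0.923 and with HNT-34 at 0.894 to 0.908. These 8 arrays were normalized together, and the correlations are a description.

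Granule protein genes were among those with the largest differences upward in AML-193. AZU1, which encodes azurocidin, an antimicrobial and catalytically inactive relative of elastase, had signals of 14.21 and 14.12 in AML-193, against 5.93 and 5.4 in HNT-34, 5.59 and 5.74 in KG1a, and 11.70 and 11.68 in HL60. AML-193 was highest, HL60 came next, and HNT-34 and KG1a lay under the array median of 6.73. The difference from the mean of the other lines was 6.49 ± 0.13, which is 90.1-fold (adjusted p = 3.91e-09), and 2.47 ± 0.15 from HL60 alone. Signals under the array median hold much background, so folds taken over them, here and for the genes that follow, may understate the gap. PRTN3, the gene of proteinase 3, lies beside AZU1 on chromosome 19 and had signals of 12.56 and 12.58 in AML-193, against 5.28 and 4.82 in HNT-34, 5.26 and 5.04 in KG1a, and 10.51 and 10.48 in HL60. Its order of the lines was the same, and its difference was 5.67 ± 0.12. The sequences upstream of both genes, and of S100A8 and F13A1, which are described next, are shown because these 4 genes are among the 7 with the largest rise of those set apart from every line, and 3 of them served as markers of the line. Each is the 200 bases before the transcription start in RefSeq (GRCh38.p14), 5′ to 3′ on the gene's strand, with the dinucleotide CG, the target of DNA methyltransferases, in capitals. AZU1 is at chr19:827637-827836, plus strand; PRTN3 at chr19:840799-840998, plus strand; S100A8 at chr1:153391189-153391388, minus strand; F13A1 at chr6:6320663-6320862, minus strand.
AZU1: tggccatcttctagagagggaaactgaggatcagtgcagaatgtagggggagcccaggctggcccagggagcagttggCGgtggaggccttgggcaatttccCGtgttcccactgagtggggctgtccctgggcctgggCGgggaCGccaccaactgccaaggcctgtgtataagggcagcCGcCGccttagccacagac
PRTN3: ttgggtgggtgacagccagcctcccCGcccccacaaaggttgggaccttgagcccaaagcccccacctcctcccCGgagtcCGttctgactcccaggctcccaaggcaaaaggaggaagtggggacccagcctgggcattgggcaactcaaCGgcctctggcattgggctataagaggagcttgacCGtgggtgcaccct
S100A8: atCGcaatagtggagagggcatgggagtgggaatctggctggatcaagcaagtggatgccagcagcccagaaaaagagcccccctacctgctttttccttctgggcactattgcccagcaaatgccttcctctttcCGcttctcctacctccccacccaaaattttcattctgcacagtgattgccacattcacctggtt
F13A1: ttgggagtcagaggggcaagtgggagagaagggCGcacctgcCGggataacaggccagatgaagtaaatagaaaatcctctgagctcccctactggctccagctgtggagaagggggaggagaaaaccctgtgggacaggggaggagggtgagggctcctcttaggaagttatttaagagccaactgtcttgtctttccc
The 4 sequences hold 6, 5, 2 and 2 CG in the order shown. CG reads the same on both strands.

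Within the list of azurophil and other granule proteins, 15 of 21 tested genes were higher and 3 lower in AML-193, against 33.9% and 33.8% of all genes. Of the higher genes 6 were set apart from every line, against 3.87% of all genes. With the control signal as covariate 14 were higher and 2 lower, against 11.9% and 10.7% of all genes. In such bulk RNA, fewer cells of a type and less RNA per cell cannot be told apart. The median difference of the granule list was 1.55, beside -0.03 over all genes tested. The 6 were AZU1, PRTN3, MS4A3, RNASE2, DEFA4 and CTSG. MS4A3, a membrane protein of granulocyte and monocyte progenitors, had signals of 14.11 and 14.09 in AML-193, against 4.22 and 4.22 in HNT-34, 7.61 and 7.49 in KG1a, and 12.87 and 12.85 in HL60. It was near the top of the scale in AML-193 and HL60 and under the median in HNT-34, and its difference was 5.89 ± 0.06. RNASE2, the eosinophil-derived neurotoxin, had 12.60 and 12.69 in AML-193, against 5.69 and 5.23 in HNT-34, 7.02 and 7.24 in KG1a, and 11.34 and 11.45 in HL60, with a difference of 4.65 ± 0.12. DEFA4, a defensin, averaged 11.47 in AML-193, against 6.82 in HNT-34, 6.87 in KG1a and 7.01 in HL60, and its difference of 4.57 ± 0.10 separated AML-193 from HL60 as well. CTSG, the cathepsin G protease, had 12.61 and 12.85 in AML-193, against 10.48 and 10.38 in HNT-34, 10.12 and 10.35 in KG1a, and 11.64 and 11.69 in HL60. Its difference was smaller, at 1.95 ± 0.09. Some granule genes were highest in HL60. MPO, the gene of myeloperoxidase, averaged 10.56 in AML-193, against 5.90 in HNT-34, 6.75 in KG1a and 14.40 in HL60. ELANE, the gene of neutrophil elastase, averaged 9.74 in AML-193, against 5.55 in HNT-34, 5.26 in KG1a and 11.44 in HL60. Against HL60 alone, 10 of the 21 genes were higher (31.5% of all genes tested were) and 8 lower (31.8%), and the median was 0.15. Members thus differed from HL60 in both directions, DEFA4 and AZU1 upward and MPO and ELANE downward. CRISP3, a late granule protein, averaged 4.00 in AML-193, against 12.32 in HNT-34, 7.22 in KG1a and 3.85 in HL60, and its difference of -3.80 ± 0.08 rested on HNT-34 and KG1a.

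S100 genes encode small calcium-binding proteins. Of them, 3 from one cluster on chromosome 1 were set apart as higher, where 3.87% of all genes were. S100A8, a subunit of calprotectin, which monocytes and neutrophils make, had signals of 13.84 and 13.78 in AML-193, against 5.2 and 5.29 in HNT-34, 6.20 and 6.28 in KG1a, and 12.13 and 12.11 in HL60. Its difference was 5.94 ± 0.06, or 61.4-fold, and 1.69 ± 0.08 from HL60. S100A9, the partner of S100A8, had 11.81 and 12.22 in AML-193, against 8.05 and 7.68 in HNT-34, 7.52 and 8.07 in KG1a, and 10.50 and 10.57 in HL60, which gives 3.28 ± 0.17. S100A6, calcyclin, had 13.16 and 13.11 in AML-193, against 5.08 and 5.75 in HNT-34, 8.60 and 8.68 in KG1a, and 6.93 and 7.09 in HL60. AML-193 was the only line with S100A6 above 13, KG1a was next, and the difference was 6.11 ± 0.15. S100P ran the other way: it averaged 7.19 in AML-193, against 11.27 in HNT-34, 10.06 in KG1a and 13.47 in HL60, with a difference of -4.41 ± 0.08. Of the 16 S100 genes tested, 4 were higher and 6 lower, against 33.9% and 33.8% of all genes, and the median was -0.06, so the family as a whole was near the shares over all genes.

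F13A1 encodes the A subunit of clotting factor XIII, a transglutaminase that monocytes and megakaryocytes make. It had signals of 11.89 and 11.76 in AML-193, against 5.30 and 5.51 in HNT-34, 5.25 and 5.18 in KG1a, and 5.78 and 5.89 in HL60. The gene was bright in AML-193 and under the array median on all 6 other arrays, and the difference of 6.34 ± 0.08 (81.2-fold as a lower bound, the other lines being near background, adjusted p = 8.86e-10) was nearly as large against HL60, at 5.99 ± 0.10. FCN1, the monocyte lectin ficolin-1, followed the same pattern with 9.26 and 9.65 in AML-193, against 5.42 and 5.55 in HNT-34, 5.56 and 5.53 in KG1a, and 5.80 and 5.95 in HL60, a difference of 3.82 ± 0.11. Other monocyte genes were shared with HL60. CSTA, the protease inhibitor cystatin A, had 14.25 and 14.32 in AML-193, against 5.76 and 5.49 in HNT-34, 5.71 and 5.52 in KG1a, and 14.08 and 14.02 in HL60. MNDA, a nuclear protein of myeloid cells, had 11.61 and 11.77 in AML-193, against 4.62 and 5.0 in HNT-34, 3.97 and 4.45 in KG1a, and 11.77 and 11.77 in HL60. CSTA and MNDA therefore differed by 5.86 ± 0.09 and 4.76 ± 0.14 from the mean but by 0.24 ± 0.11 (adjusted p = 0.0894) and -0.08 ± 0.17 (adjusted p = 0.702) from HL60. CD14, the lipopolysaccharide co-receptor that defines mature monocytes, was under the array median in AML-193 at 5.80 and 5.95, and HL60 had 8.38 and 8.61. VCAN and FCGR1A, monocyte markers too, were under the median in AML-193 and were not tested. Of 46 monocyte and macrophage genes tested, 18 were higher and 16 lower, against 33.9% and 33.8% of all genes, with a median of 0.00. Of the 46, 5 were set apart as higher (F13A1, FCN1, NCF1, SIRPA and SPP1) and 2 as lower (CLEC7A and CTSS). Over all genes 3.87% and 2.7% were set apart. Against HL60 alone, 11 of the 46 were higher and 21 lower, with a median of -0.23. Over all genes these shares were 31.5% and 31.8%.

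Of the 10 monocytic markers with a probe set of their own, 7 of the 8 tested were higher in AML-193 and CD14 was lower. Over all genes 33.9% were higher and 33.8% lower. These calls are against the mean of 3 lines. LYZ was higher in HL60, at 12.80 and 12.79, than in AML-193, at 11.94 and 11.99. MNDA was level with HL60, and ITGAM was highest in KG1a, at 11.68 and 11.50. CSF1R differed by only 0.24 ± 0.09. The summed log2 signal of the 10 markers was 90.9 and 91.9 in AML-193 and ran from 62.8 to 86.9 on the other arrays. Summed signals of short marker panels for other lineages lay within or close to the range of the other arrays. Outside these panels, NCAM1, GATA3 and CD247 of the T and NK cell list were set apart as higher, as given below. Sums for 4 erythroid markers were 27.5 and 27.8 in AML-193 and 26.8 to 28.2 elsewhere, and limma called 0 of 3 tested genes, adjusted or unadjusted. For 4 B cell markers they were 29.5 on both AML-193 arrays and 29.5 to 30.6 elsewhere, with CD79A lower. For 6 fibroblast markers they were 39.0 and 39.7 in AML-193 and 38.8 to 40.5 elsewhere, with COL1A1 lower. For 5 epithelial markers they were 30.4 and 30.5 in AML-193 and 28.4 to 36.8 elsewhere, with KRT18 lower. For 7 T and NK markers they were 48.7 and 49.1 in AML-193 and 47.9 to 53.1 elsewhere, with NKG7 higher and CD3D and CD3E lower. AML-193 thus carried LYZ, FCN1, S100A9, MNDA and CLEC12A at high levels, with CD14, VCAN and FCGR1A at or below the median.

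**Figure D2:**
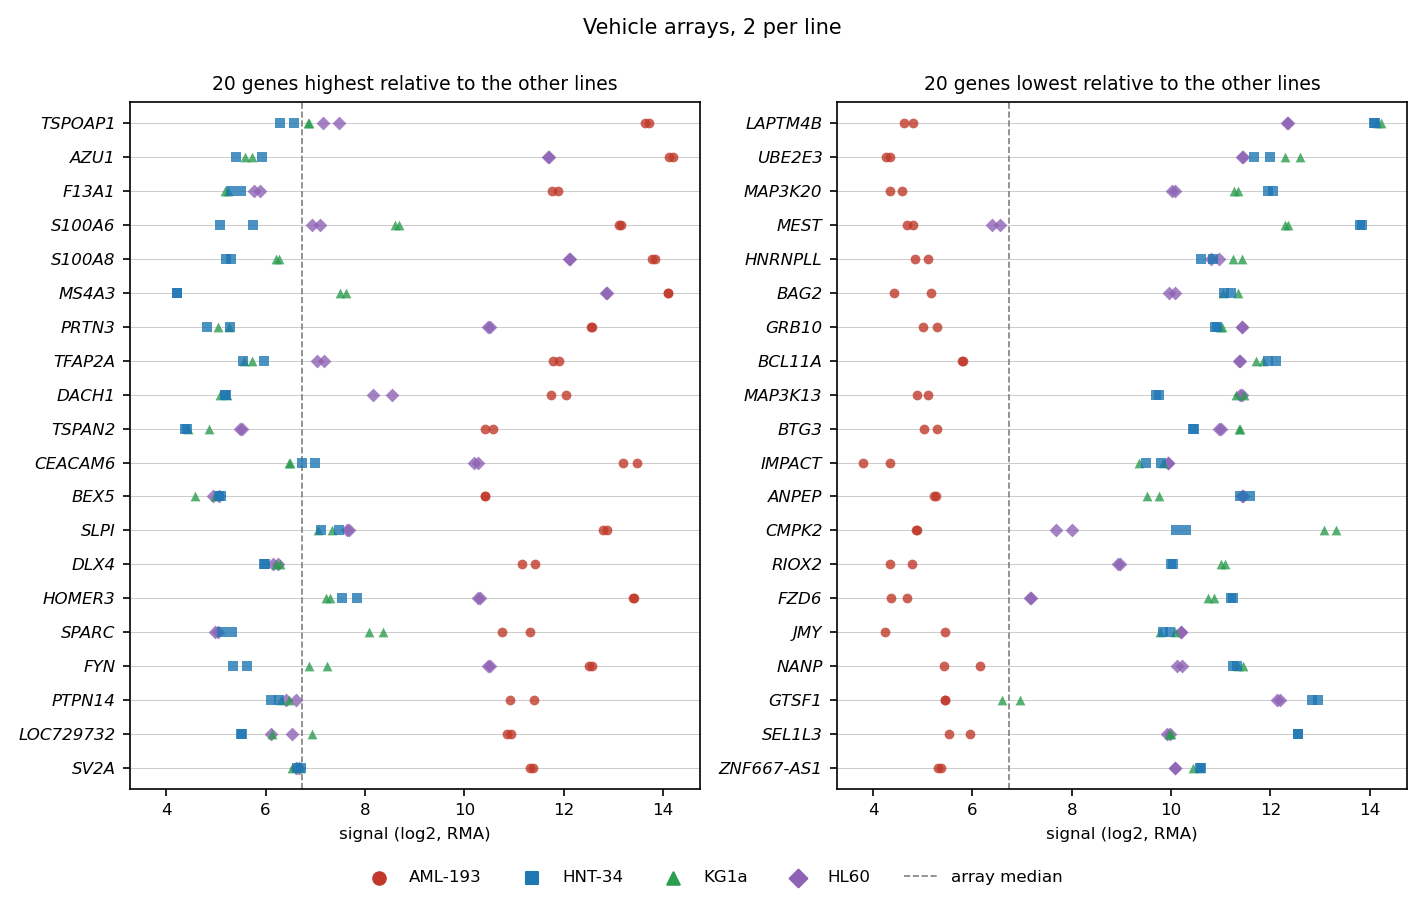
Signal on the 8 vehicle arrays (log2, horizontal axes) of the 20 genes with the largest difference upward (left) and downward (right) among those set apart from every other line; each point is 1 array, and the dashed line is the array median of 6.73. AML-193 points lie right of all others in the left panel and left of all others, and under the median, in the right panel.

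The 20 largest of the 528 higher genes had differences of 4.71 to 6.81, and the plot of the 40 leading genes shows each array. The largest was that of TSPOAP1, which encodes a binding partner of the mitochondrial translocator protein. It had 13.72 and 13.63 in AML-193, against 6.28 and 6.58 in HNT-34, 6.88 and 6.85 in KG1a, and 7.16 and 7.47 in HL60. AML-193 was the only line well above the median, and the difference of 6.81 ± 0.10 is 112-fold (adjusted p = 1.70e-09). Genes of secreted or surface proteins made up a part of the group. SLPI, an inhibitor of elastase and cathepsin G, had 12.87 and 12.80 in AML-193, against 7.49 and 7.12 in HNT-34, 7.06 and 7.33 in KG1a, and 7.69 and 7.64 in HL60. CEACAM6, a granulocyte adhesion molecule, had 13.20 and 13.47 in AML-193, against 6.99 and 6.73 in HNT-34, 6.49 and 6.47 in KG1a, and 10.19 and 10.28 in HL60, with HL60 again nearest. SPARC, a matrix-binding protein, had 10.75 and 11.31 in AML-193, against 5.11 and 5.32 in HNT-34, 8.09 and 8.36 in KG1a, and 4.99 and 5.04 in HL60, and here KG1a was nearest. Differences were 5.45 ± 0.11 for SLPI, 5.48 ± 0.10 for CEACAM6 and 4.88 ± 0.14 for SPARC. TSPAN2, a tetraspanin, averaged 10.49 in AML-193, against 4.39 in HNT-34, 4.65 in KG1a and 5.5 in HL60.

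Transcriptional regulators that are better known from other tissues were among the 20. TFAP2A, the AP-2 alpha factor of neural crest and epidermis, had 11.90 and 11.78 in AML-193, against 5.97 and 5.55 in HNT-34, 5.72 and 5.57 in KG1a, and 7.03 and 7.18 in HL60. DACH1, a corepressor of eye and limb development, had 11.74 and 12.04 in AML-193, against 5.19 and 5.19 in HNT-34, 5.08 and 5.22 in KG1a, and 8.17 and 8.54 in HL60. DLX4, a homeobox gene, had 11.41 and 11.15 in AML-193, against 6.0 and 5.97 in HNT-34, 6.29 and 6.21 in KG1a, and 6.24 and 6.16 in HL60. All 3 were at or under 8.54 on every array of the other lines, and their differences were 5.67 ± 0.11, 5.66 ± 0.11 and 5.14 ± 0.08. Signalling genes were FYN, a SRC-family kinase, and PTPN14, a phosphatase that restrains YAP. FYN had 12.56 and 12.51 in AML-193, against 5.34 and 5.62 in HNT-34, 6.88 and 7.24 in KG1a, and 10.51 and 10.48 in HL60. PTPN14 had 10.92 and 11.41 in AML-193, against 6.27 and 6.11 in HNT-34, 6.47 and 6.31 in KG1a, and 6.4 and 6.62 in HL60. FYN was next highest in HL60, and PTPN14 was under the median on every other array. HOMER3, a scaffold of receptor complexes, averaged 13.40 in AML-193, against 7.68 in HNT-34, 7.26 in KG1a and 10.30 in HL60. SV2A, a synaptic vesicle protein, differed by 4.71 ± 0.07 and BEX5 by 5.46 ± 0.10. LOC729732, an uncharacterised locus, had a difference of 4.77 ± 0.19.

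In 20 genes AML-193 was the high line while all the others averaged at or below the array median, with 9 taken as the lower bound of a high signal. These included F13A1, TSPAN2, BEX5, DLX4, PTPN14, SV2A, FCN1 and GATA3. On the AZA arrays of AML-193, 19 of the 20 were again at 9 or more. This set and the one opposite to it were defined after the values were seen.

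The genes lower in AML-193 were led by LAPTM4B, a lysosomal membrane protein counted among leukaemia stem cell genes. It had 4.63 and 4.80 in AML-193, against 14.10 and 14.09 in HNT-34, 14.14 and 14.23 in KG1a, and 12.34 and 12.35 in HL60. The signal was under the median in AML-193 and among the brightest in HNT-34 and KG1a. The difference of -8.83 ± 0.07 is 454-fold (adjusted p = 1.18e-10), and its 4 probe sets gave -8.83 to -5.91. UBE2E3, a ubiquitin-conjugating enzyme, had 4.35 and 4.26 in AML-193, against 12.00 and 11.68 in HNT-34, 12.30 and 12.59 in KG1a, and 11.43 and 11.46 in HL60, a difference of -7.60 ± 0.11. MAP3K20, the ZAK kinase of the ribotoxic stress response, had 4.58 and 4.34 in AML-193, against 12.04 and 11.96 in HNT-34, 11.27 and 11.35 in KG1a, and 10.02 and 10.09 in HL60. MEST, an imprinted gene, had 4.80 and 4.68 in AML-193, against 13.80 and 13.85 in HNT-34, 12.34 and 12.30 in KG1a, and 6.4 and 6.55 in HL60, so the gap to HL60 was smaller than that to the other lines. HNRNPLL, a regulator of alternative splicing, had 5.10 and 4.85 in AML-193, against 10.84 and 10.61 in HNT-34, 11.25 and 11.43 in KG1a, and 10.81 and 10.96 in HL60, and its difference was -6.01 ± 0.10. On these 5 genes the AML-193 arrays lay between 4.26 and 5.10. Signals at this level hold mostly background, and a difference from such a level may understate the gap.

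The upstream sequences of UBE2E3 and HNRNPLL are shown as examples of genes that were near background in AML-193 and bright in all 3 other lines. HNRNPLL is among the 3 of 27 such genes that were higher by at least 1 on the AZA arrays of AML-193. They are drawn as for AZU1, with CG in capitals. UBE2E3 is at chr2:180980160-180980359, plus strand; HNRNPLL at chr2:38602929-38603128, minus strand.
UBE2E3: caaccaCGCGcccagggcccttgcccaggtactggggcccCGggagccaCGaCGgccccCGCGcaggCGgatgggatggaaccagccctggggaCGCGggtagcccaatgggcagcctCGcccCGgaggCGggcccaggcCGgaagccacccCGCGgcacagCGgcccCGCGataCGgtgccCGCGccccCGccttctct
HNRNPLL: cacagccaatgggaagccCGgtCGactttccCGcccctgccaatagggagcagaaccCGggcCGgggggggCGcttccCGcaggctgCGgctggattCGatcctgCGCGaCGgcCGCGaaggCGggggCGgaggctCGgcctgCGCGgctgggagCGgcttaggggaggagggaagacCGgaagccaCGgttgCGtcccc
Each holds 23 CG, against 2 to 6 in the windows of AZU1, PRTN3, S100A8 and F13A1. The genes shown were picked, so this contrast does not describe their groups. In the 250 bases before the start, counts ran from 2 to 36 over the 20 largest rises. Over the 20 largest falls they ran from 2 to 39.

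Adaptors and kinases followed. GRB10, an adaptor of the insulin receptor, had 5.01 and 5.30 in AML-193, against 10.93 and 10.88 in HNT-34, 10.99 and 11.02 in KG1a, and 11.43 and 11.44 in HL60. BAG2, a co-chaperone of HSP70, had 4.42 and 5.17 in AML-193, against 11.20 and 11.07 in HNT-34, 11.04 and 11.34 in KG1a, and 9.95 and 10.08 in HL60. MAP3K13, a kinase upstream of JNK, had 4.88 and 5.12 in AML-193, against 9.75 and 9.70 in HNT-34, 11.47 and 11.30 in KG1a, and 11.38 and 11.42 in HL60. Each was at or under 5.30 in AML-193 and at 9.70 or above on all other arrays. BCL11A, a zinc finger repressor known from the fetal globin switch, averaged 5.80 in AML-193, against 12.03 in HNT-34, 11.78 in KG1a and 11.38 in HL60. BTG3, an antiproliferative protein, averaged 5.15 in AML-193, against 10.45 in HNT-34, 11.38 in KG1a and 10.98 in HL60. IMPACT, an inhibitor of the amino acid sensor GCN2, averaged 4.07 in AML-193, against 9.65 in HNT-34, 9.59 in KG1a and 9.94 in HL60. JMY, an actin nucleator, averaged 4.84 in AML-193, against 9.91 in HNT-34, 9.92 in KG1a and 10.20 in HL60, and its AML-193 arrays lay well apart, at 5.44 and 4.25. NANP, a phosphatase of sialic acid synthesis, averaged 5.79 in AML-193, against 11.29 in HNT-34, 11.39 in KG1a and 10.16 in HL60. ANPEP, which encodes the myeloid surface peptidase CD13, had 5.23 and 5.26 in AML-193, against 11.38 and 11.59 in HNT-34, 9.77 and 9.52 in KG1a, and 11.42 and 11.45 in HL60. The other lines had no array under 9.52, and the difference was -5.61 ± 0.09.

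The remaining genes of the 20 were CMPK2, RIOX2, FZD6, GTSF1, SEL1L3 and ZNF667-AS1, with differences from -5.54 to -5.05. FZD6, a WNT receptor, had 4.37 and 4.68 in AML-193, against 11.24 and 11.20 in HNT-34, 10.74 and 10.86 in KG1a, and 7.17 and 7.18 in HL60. GTSF1, a factor of the piRNA pathway of germ cells, had 5.45 and 5.46 in AML-193, against 12.84 and 12.96 in HNT-34, 6.95 and 6.60 in KG1a, and 12.12 and 12.20 in HL60. Here KG1a was close to AML-193, and the difference from the mean of -5.16 ± 0.10 came from HNT-34 and HL60. RIOX2, a ribosomal oxygenase, averaged 4.56 in AML-193, against 10.01 in HNT-34, 11.05 in KG1a and 8.95 in HL60.

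In 27 genes AML-193 averaged at or below the array median while each of the other lines averaged 9 or more. Their AML-193 means ran from 4.07 to 6.59. On the AZA arrays of AML-193, 22 of the 27 were still at or below the median on both arrays, and 3 were higher by at least 1: HNRNPLL, MAP3K13 and TTC14. In 21 of the 27 every probe set of the gene was at or below the median in AML-193, and in all 20 with several probe sets each of these was lower in AML-193. Dim probe sets and the one that placed the gene in the set are counted. Some barely differed, at -0.009 in MAP3K13 and -0.127 in ANPEP, so these counts are no check of the set. Of the 27, 4 were zinc finger genes named ZNF: ZNF84, ZNF667, ZNF134 and ZNF507. In the 250 bases before the start, the 25 of these genes with a RefSeq promoter had a median of 23 CG, and 84% of them had at least 15. Over all tested genes with a promoter the median was 20 and the share 68.2%, while all 27305 promoters available had a median of 11 and a share of 42.7%. Among the 369 lower genes the median was 22, over 310 with a promoter. Among the 528 higher genes it was 20, but fewer than 80% had a promoter, so that count is void. For the 20 largest rises the median was 7 over 16 genes and for the 20 largest falls 23 over 17 genes. CG counts are a description of sequence and say nothing on methylation, which was not analysed here.

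The genes of stem and progenitor cells were the list that was lower most often. Of 24 tested, 21 were lower (33.8% of all genes were) and 1, SOCS2, was higher, and the median difference was -2.45. With the control signal as covariate 18 were lower, against 10.7% of all genes. KIT, the stem cell factor receptor, had 5.25 and 4.98 in AML-193, against 10.73 and 10.84 in HNT-34, 9.16 and 8.99 in KG1a, and 7.99 and 8.07 in HL60, a difference of -4.18 ± 0.09. GATA2, a transcription factor of stem and mast cells, had 7.03 and 7.15 in AML-193, against 10.73 and 10.79 in HNT-34, 12.09 and 12.03 in KG1a, and 9.14 and 9.15 in HL60. CDK6, a cell cycle kinase, averaged 9.97 in AML-193, against 12.51 in HNT-34, 13.40 in KG1a and 11.93 in HL60. FLT3, a cytokine receptor often mutated in AML, averaged 6.73 in AML-193, against 8.62 in HNT-34, 7.73 in KG1a and 9.55 in HL60. With LAPTM4B these made up the 5 that were set apart from every line, where 2.7% of all genes were set apart as lower. Other members were low in HL60 too. HOPX, a homeodomain protein, had 6.01 and 5.30 in AML-193, against 12.52 and 12.65 in HNT-34, 13.88 and 13.72 in KG1a, and 6.04 and 6.55 in HL60. MEIS1, a HOX cofactor, had 5.18 and 4.88 in AML-193, against 10.77 and 10.86 in HNT-34, 10.63 and 10.61 in KG1a, and 4.83 and 4.31 in HL60. ANGPT1, a ligand of the TEK receptor, had 5.90 and 6.04 in AML-193, against 12.40 and 11.94 in HNT-34, 11.57 and 12.08 in KG1a, and 6.33 and 5.95 in HL60. CD34, the surface antigen by which stem cells are sorted, averaged 7.77 in AML-193, against 11.74 in HNT-34, 12.55 in KG1a and 7.64 in HL60. Their differences were -5.24 ± 0.19, -3.64 ± 0.13, -4.07 ± 0.17 and -2.87 ± 0.10. Against HL60 alone, 8 of the 24 were lower and 7 higher, with a median of -0.16, so most of the list's gap was to HNT-34 (median -3.49) and KG1a (-3.39).

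**Figure D3:**
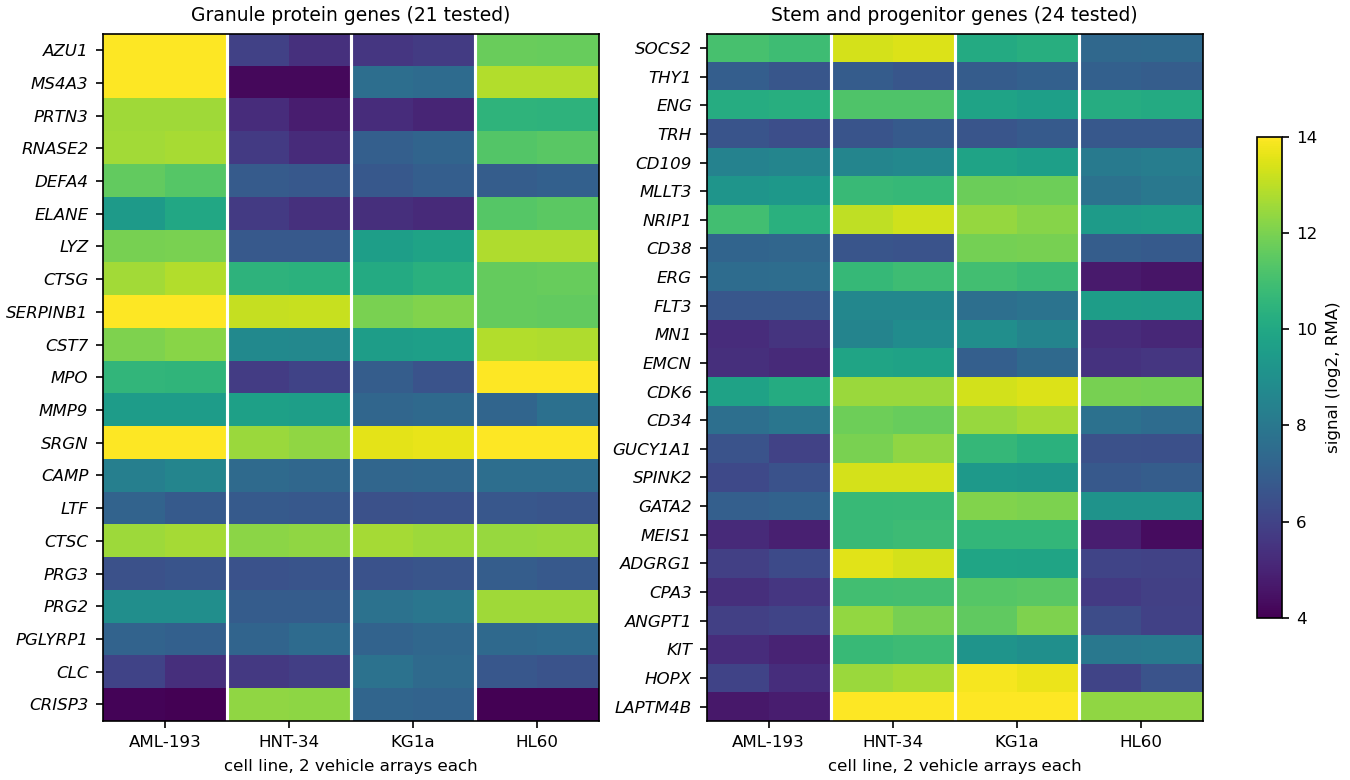
Signal (log2, colour scale) of the 21 tested granule protein genes (left) and 24 stem and progenitor genes (right) on the 2 vehicle arrays of each line (horizontal axis), ordered by the difference between AML-193 and the mean of the others. Most granule genes are bright in AML-193 and HL60, and most stem and progenitor genes are bright in HNT-34 and KG1a.

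Of 34 myeloid transcription factor genes, 16 were higher and 13 lower (33.9% and 33.8% of all genes were), and 5 were set apart. Of the 5, 3 were higher and 2 lower, where 3.87% and 2.7% of all genes were set apart. BCL6, a repressor of germinal centre and myeloid genes, had 10.25 and 10.27 in AML-193, against 6.0 and 6.38 in HNT-34, 6.22 and 5.74 in KG1a, and 8.99 and 9.01 in HL60, a difference of 3.20 ± 0.14. ID2, an inhibitor of basic helix-loop-helix factors, averaged 12.83 in AML-193, against 10.34 in HNT-34, 8.99 in KG1a and 11.51 in HL60. IRF5, an interferon regulatory factor of macrophages, averaged 10.99 in AML-193, against 8.86 in HNT-34, 9.66 in KG1a and 9.05 in HL60. Lower in AML-193 were GATA2, given above, and WT1, which averaged 9.22 in AML-193, against 11.11 in HNT-34, 11.04 in KG1a and 10.76 in HL60. RUNX2 had 11.12 and 10.92 in AML-193, against 7.48 and 7.78 in HNT-34, 6.75 and 6.36 in KG1a, and 10.60 and 10.57 in HL60. AML-193 and HL60 were close, and its 3 bright probe sets ran from -0.27 to 2.76. SPI1 and CEBPA, the central factors of monocytes and granulocytes, differed by 0.90 ± 0.07 and 1.16 ± 0.11. Of 16 HOX and cofactor genes tested, 4 were higher and 7 lower. HOXC6 had 10.61 and 10.44 in AML-193, against 6.99 and 7.02 in HNT-34, 6.15 and 5.87 in KG1a, and 6.19 and 6.22 in HL60. It was well above the median in AML-193 alone, with a difference of 4.12 ± 0.09. MEIS2 had 5.01 and 5.32 in AML-193, against 11.01 and 10.95 in HNT-34, 8.61 and 8.58 in KG1a, and 9.58 and 9.65 in HL60, a difference of -4.57 ± 0.09. MECOM, known for its rearrangement in HNT-34, had 4.63 and 4.64 in AML-193, against 12.42 and 12.39 in HNT-34, 4.56 and 4.55 in KG1a, and 4.54 and 4.76 in HL60. It was near background in AML-193, KG1a and HL60.

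Of 35 cytokine receptor genes, 19 were higher and 10 lower in AML-193, against 33.9% and 33.8% of all genes, with a median of 0.26. CSF3R, the G-CSF receptor, had 11.97 and 11.99 in AML-193, against 7.14 and 7.29 in HNT-34, 10.50 and 10.46 in KG1a, and 10.62 and 10.57 in HL60, a difference of 2.55 ± 0.07. IL2RA, the alpha chain of the IL-2 receptor, had 9.62 and 9.44 in AML-193, against 6.17 and 6.13 in HNT-34, 7.54 and 7.91 in KG1a, and 6.13 and 6.52 in HL60, a difference of 2.79 ± 0.13. IL13RA1 had 5.56 and 5.5 in AML-193, against 9.59 and 9.49 in HNT-34, 6.38 and 6.54 in KG1a, and 8.64 and 8.62 in HL60, and its difference of -2.68 ± 0.07 included KG1a only weakly. TGFBR2 was the third gene set apart as lower, beside KIT and FLT3, and averaged 9.65 in AML-193, against 11.37 in HNT-34, 10.74 in KG1a and 11.06 in HL60. Of the 35, 2 were set apart as higher and 3 as lower, where 3.87% and 2.7% of all genes were. The GM-CSF receptor chains did not lead. CSF2RA differed by 0.01 ± 0.13 (adjusted p = 0.958) and CSF2RB by 0.48 ± 0.07. Among 42 genes of JAK-STAT signalling and its feedback, 20 were higher and 11 lower. Against HNT-34 alone 11 were higher and 19 lower (32.2% and 32.2% of all genes were), with a median of -0.17. Against KG1a it was 23 and 11 (33.3% and 29.7%), and against HL60 20 and 6 (31.5% and 31.8%). On the AZA arrays 17 were higher and 15 lower (30.7% and 30.8%). Set apart as higher were 5, where 3.87% of all genes were: BCL6, IL2RA, PIM1, SPRY2 and TYK2. PIM1, a kinase induced by STAT5, had 13.74 and 13.79 in AML-193, against 12.63 and 12.73 in HNT-34, 12.08 and 11.89 in KG1a, and 9.61 and 9.5 in HL60. SPRY2, a feedback inhibitor of receptor kinases, had 11.41 and 11.29 in AML-193, against 9.74 and 9.75 in HNT-34, 8.10 and 8.21 in KG1a, and 9.94 and 9.92 in HL60.

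Of 39 surface antigens used in leukaemia typing, 16 were higher and 20 lower, against 33.9% and 33.8% of all genes. NCAM1, or CD56, a natural killer cell antigen also found on some AML, had 12.05 and 12.16 in AML-193, against 10.21 and 10.15 in HNT-34, 6.23 and 5.69 in KG1a, and 6.5 and 6.65 in HL60. AML-193 was highest and HNT-34 next, with a difference of 4.53 ± 0.13, and its 4 bright probe sets ran from 0.17 to 4.53. Lower in AML-193 than in every line were ANPEP, KIT, FLT3, CD52 and SIGLEC6, which is 5 of the 39, where 2.7% of all genes were. CD52 had 9.06 and 7.74 in AML-193, against 12.97 and 13.06 in HNT-34, 12.99 and 12.91 in KG1a, and 10.02 and 10.05 in HL60, and its AML-193 arrays differed from each other by more than 1. Of 23 T and NK cell genes, 7 were higher and 9 lower. NCAM1, GATA3 and CD247 were set apart as higher, where 3.87% of all genes were. GATA3, a T helper factor, had 9.10 and 9.16 in AML-193, against 5.73 and 5.66 in HNT-34, 6.06 and 6.20 in KG1a, and 6.02 and 5.79 in HL60. CD247, the zeta chain of the T cell receptor complex, had 10.15 and 9.97 in AML-193, against 6.59 and 6.80 in HNT-34, 8.44 and 8.38 in KG1a, and 7.0 and 6.98 in HL60. The 2 bright probe sets of CD247 gave 0.11 and 2.70. CD3D, CD3E, CD3G and CD2 were at or below 7.56 in AML-193. Of 37 integrin and adhesion genes, 10 were higher and 17 lower. ALCAM, an adhesion molecule, averaged 12.88 in AML-193, against 8.07 in HNT-34, 11.86 in KG1a and 11.74 in HL60. CD58, the ligand of CD2, averaged 9.15 in AML-193, against 10.48 in HNT-34, 11.40 in KG1a and 10.24 in HL60. ITGA5, the fibronectin receptor's alpha chain, was higher by 1.54 ± 0.10.

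HLA class II genes were low in AML-193. HLA-DRA, the alpha chain of all DR molecules, had 6.04 and 5.71 in AML-193, against 11.94 and 12.00 in HNT-34, 14.02 and 13.99 in KG1a, and 6.30 and 6.20 in HL60. HLA-DRB1, a beta chain, had 8.46 and 8.48 in AML-193, against 11.13 and 10.95 in HNT-34, 13.44 and 13.55 in KG1a, and 8.41 and 8.43 in HL60. CD74, the invariant chain, had 9.53 and 9.49 in AML-193, against 12.13 and 12.00 in HNT-34, 13.04 and 13.05 in KG1a, and 8.15 and 8.43 in HL60. The signals split the lines into HNT-34 and KG1a with high levels and AML-193 and HL60 with low ones. Of 19 class II and presentation genes, 10 were lower and 2 higher, and only CTSS was set apart from every line, HL60 included. Of 19 class I and presentation genes 13 were higher and 5 lower, with a median of 0.51, and none was set apart. Over all genes 33.9% were higher and 33.8% lower. HLA-B had 14.78 and 14.86 in AML-193, against 11.57 and 11.53 in HNT-34, 14.31 and 14.40 in KG1a, and 14.58 and 14.62 in HL60, a difference of 1.32 ± 0.06. NLRC5, the activator of class I genes, had 10.89 and 10.65 in AML-193, against 6.37 and 6.60 in HNT-34, 10.24 and 9.93 in KG1a, and 10.15 and 10.06 in HL60. Both were lowest in HNT-34. Interferon-stimulated genes were split, with 23 higher and 19 lower of 54 and a median of 0.08. MX2, an inhibitor of viral entry to the nucleus, had 11.49 and 11.32 in AML-193, against 6.80 and 7.36 in HNT-34, 6.96 and 7.18 in KG1a, and 7.85 and 8.04 in HL60. IFI44L had 8.82 and 8.91 in AML-193, against 5.91 and 6.02 in HNT-34, 6.28 and 6.33 in KG1a, and 5.51 and 5.01 in HL60. The differences of MX2 and IFI44L were 4.04 ± 0.14 and 3.02 ± 0.12. RSAD2, the antiviral enzyme viperin, had 5.17 and 4.91 in AML-193, against 7.02 and 7.15 in HNT-34, 12.12 and 12.07 in KG1a, and 5.34 and 4.91 in HL60, and KG1a alone was bright. GBP5 and LAMP3 were set apart too, with 1.94 ± 0.06 and 3.01 ± 0.13. Of the 54, 4 were set apart as higher and 1 as lower, where 3.87% and 2.7% of all genes were.

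Of 31 chemokine and inflammatory genes, 13 were higher and 12 lower, against 33.9% and 33.8% of all genes. CXCL1, a neutrophil attractant, had 10.19 and 10.20 in AML-193, against 8.26 and 7.78 in HNT-34, 5.5 and 5.38 in KG1a, and 5.56 and 5.47 in HL60, a difference of 3.87 ± 0.12. CCL2, a monocyte attractant, had 11.96 and 12.18 in AML-193, against 6.03 and 6.09 in HNT-34, 5.89 and 6.32 in KG1a, and 13.32 and 13.28 in HL60. It was highest in HL60 and next highest in AML-193. IL32, an inflammatory cytokine, had 5.86 and 5.01 in AML-193, against 12.49 and 12.39 in HNT-34, 10.87 and 10.91 in KG1a, and 6.19 and 6.06 in HL60. IL18, at -2.04 ± 0.09, was lower than in every line and IL1A, at 1.67 ± 0.13, higher. CXCR2, the receptor of CXCL1, had 9.61 and 9.67 in AML-193, against 4.91 and 5.58 in HNT-34, 6.20 and 6.90 in KG1a, and 8.17 and 8.30 in HL60. It was the only gene set apart among 22 chemokine receptor and migration genes, of which 6 were higher and 10 lower.

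A list of azacitidine uptake and metabolism genes was of interest because the same lines were treated with the drug. Which of its members act on this drug was not examined. Of 25 tested, 13 were lower and 7 higher in vehicle-treated AML-193, with a median of -0.41, against 33.8% and 33.9% of all genes. With the control signal as covariate 7 were lower and 2 higher, against 10.7% and 11.9% of all genes. CDA, cytidine deaminase, which inactivates the drug, had 10.55 and 10.96 in AML-193, against 8.86 and 8.79 in HNT-34, 5.89 and 6.55 in KG1a, and 7.59 and 7.74 in HL60. The AML-193 signals were above all others, and the difference was 3.18 ± 0.17, or 9.07-fold. SAMHD1, a hydrolase of deoxynucleotides, had 12.57 and 12.41 in AML-193, against 6.84 and 6.87 in HNT-34, 8.07 and 8.05 in KG1a, and 11.23 and 11.28 in HL60, a difference of 3.76 ± 0.07 and 1.23 ± 0.08 from HL60. SLC29A2, a nucleoside transporter, had 5.58 and 5.87 in AML-193, against 7.78 and 7.62 in HNT-34, 8.63 and 8.66 in KG1a, and 8.75 and 8.56 in HL60. AML-193 was lowest on this probe set, and the difference was -2.61 ± 0.10, though the gene's 4 bright probe sets ran from -2.61 to 0.15. CMPK2, a mitochondrial nucleotide kinase that interferon induces, had 4.89 and 4.87 in AML-193, against 10.31 and 10.10 in HNT-34, 13.08 and 13.32 in KG1a, and 7.69 and 8.0 in HL60, a difference of -5.54 ± 0.11. CTPS1, which makes CTP, averaged 9.33 in AML-193, against 10.46 in HNT-34, 10.52 in KG1a and 10.71 in HL60. These 5 were set apart from every line, 2 as higher and 3 as lower, where 3.87% and 2.7% of all genes were. DCK and UCKL1, kinases of nucleosides, differed by -0.03 ± 0.08 and 0.04 ± 0.08, and neither passed the test. These 2 values do not describe the activation of azacitidine, which was not tested. SLC29A1, the main nucleoside transporter, averaged 9.19 in AML-193, against 8.71 in HNT-34, 9.76 in KG1a and 11.34 in HL60, with AML-193 arrays at 9.11 and 9.27.

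Of 21 genes of the DNA methylation machinery, 11 were higher and 6 lower, against 33.9% and 33.8% of all genes. TET2, an enzyme that oxidises methylcytosine, had 4.29 and 4.95 in AML-193, against 8.54 and 8.63 in HNT-34, 9.42 and 9.33 in KG1a, and 9.32 and 9.38 in HL60. It was near background in AML-193 alone, and the difference was -4.48 ± 0.15 (adjusted p = 5.45e-08), though its 2 bright probe sets gave -4.48 and -0.96. HELLS was the other gene set apart, at 1.06 ± 0.19. DNMT1, the maintenance methyltransferase, differed by -0.11 ± 0.07 (adjusted p = 0.194), DNMT3A by 1.21 ± 0.07 and DNMT3B by -0.91 ± 0.09. The 3 bright probe sets of DNMT3A ran from 0.18 to 1.21. Of 6 cancer-testis genes tested, 4 were lower and limma called 0 higher, adjusted or unadjusted, and GTSF1 was set apart. PRAME had 6.60 and 6.07 in AML-193, against 11.84 and 11.82 in HNT-34, 6.21 and 6.5 in KG1a, and 11.88 and 11.91 in HL60.

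Metallothioneins, which bind zinc and copper, lay side by side on chromosome 16 and were higher together. MT1E had 12.21 and 12.15 in AML-193, against 9.19 and 9.34 in HNT-34, 8.87 and 9.13 in KG1a, and 9.73 and 9.74 in HL60. MT2A had 13.53 and 13.36 in AML-193, against 10.89 and 10.88 in HNT-34, 10.28 and 10.46 in KG1a, and 11.39 and 11.35 in HL60. AML-193 was highest and HL60 next in both. Differences were 2.85 ± 0.08 for MT1E, 2.74 ± 0.08 for MT1F, 2.57 ± 0.08 for MT2A, 2.46 ± 0.06 for MT1X and 2.25 ± 0.06 for MT1H. All 5 metallothionein genes were set apart as higher, where 3.87% of all genes were. These genes are near-identical copies, and their probe sets may read each other's transcripts. Of all 27 genes of the list, which also holds NRF2 targets, 11 were higher and 7 lower, where 33.9% and 33.8% of all genes were. On the AZA arrays 23 were higher and 3 lower, where 30.7% and 30.8% of all genes were. The change of these counts between arms was not tested.

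PHGDH, the first enzyme of serine synthesis, had 7.55 and 7.82 in AML-193, against 11.90 and 11.82 in HNT-34, 12.79 and 12.81 in KG1a, and 13.13 and 13.15 in HL60, a difference of -4.92 ± 0.08. PSAT1, the second enzyme, had 6.73 and 6.76 in AML-193, against 7.38 and 7.43 in HNT-34, 12.43 and 12.81 in KG1a, and 13.07 and 13.12 in HL60. It was low in HNT-34 too. Of 40 amino acid and ATF4 genes, 12 were higher and 18 lower, and CTH, which makes cysteine, was set apart as higher with 2.20 ± 0.07. Of 31 cholesterol and fatty acid genes, 21 were higher and 4 lower, with a median of 0.52, against 33.9% and 33.8% of all genes. With the control signal as covariate 9 were higher, against 11.9%. ABCA1, a cholesterol exporter, had 10.50 and 10.47 in AML-193, against 5.94 and 5.58 in HNT-34, 9.44 and 9.40 in KG1a, and 9.38 and 9.32 in HL60. It was the only one set apart. On the AZA arrays 7 of these 31 were higher (30.7% of all genes) and 16 lower (30.8%), with a median of -0.17. HK3, a hexokinase of myeloid cells, had 10.01 and 10.04 in AML-193, against 7.26 and 7.14 in HNT-34, 7.34 and 7.34 in KG1a, and 7.65 and 7.61 in HL60. Of 33 lysosomal genes, 18 were higher and 9 lower. CTSA, a lysosomal carboxypeptidase, had 13.35 and 13.58 in AML-193, against 10.28 and 10.36 in HNT-34, 11.59 and 11.48 in KG1a, and 12.28 and 12.27 in HL60. CTSH, an aminopeptidase, had 7.5 and 7.47 in AML-193, against 10.93 and 10.90 in HNT-34, 8.74 and 8.79 in KG1a, and 8.53 and 8.60 in HL60.

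Of 53 mitosis genes 34 were higher and 8 lower, against 33.9% and 33.8% of all genes, with a median of 0.37 and differences no larger than 1.35. With the control signal as covariate 11 were higher and 1 lower, against 11.9% and 10.7% of all genes. TTK, the spindle checkpoint kinase, had 11.78 and 11.60 in AML-193, against 9.35 and 9.34 in HNT-34, 11.05 and 10.98 in KG1a, and 10.64 and 10.68 in HL60. ANLN was the only one set apart. Of 47 replication genes 19 were higher and 16 lower, with a median of 0.02. RPA2, of the single-strand binding complex, had 10.81 and 11.07 in AML-193, against 13.03 and 12.98 in HNT-34, 12.45 and 12.46 in KG1a, and 12.67 and 12.68 in HL60. It was set apart as lower. MYC averaged 12.18 in AML-193, against 13.06 in HNT-34, 13.27 in KG1a and 13.93 in HL60. Its difference of -1.25 ± 0.20 was -0.09 with the control signal as covariate (limma adjusted p = 0.921) and -0.20 on the AZA arrays. Of 34 MYC and ribosome biogenesis genes 10 were higher and 17 lower. CDKN2A, the gene of the inhibitors p16 and ARF, had 12.03 and 12.08 in AML-193, against 7.98 and 7.70 in HNT-34, 8.79 and 8.99 in KG1a, and 9.5 and 9.48 in HL60, a difference of 3.31 ± 0.09. Of 31 p53 targets and regulators, 9 were higher and 17 lower. CDKN2A and SESN3 were set apart as higher and CCNG1 as lower, where 3.87% and 2.7% of all genes were. In the BCL2 family and other death regulators the counts were 8 and 10 of 23, with XIAP set apart at -1.26 ± 0.08.

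**Figure D4:**
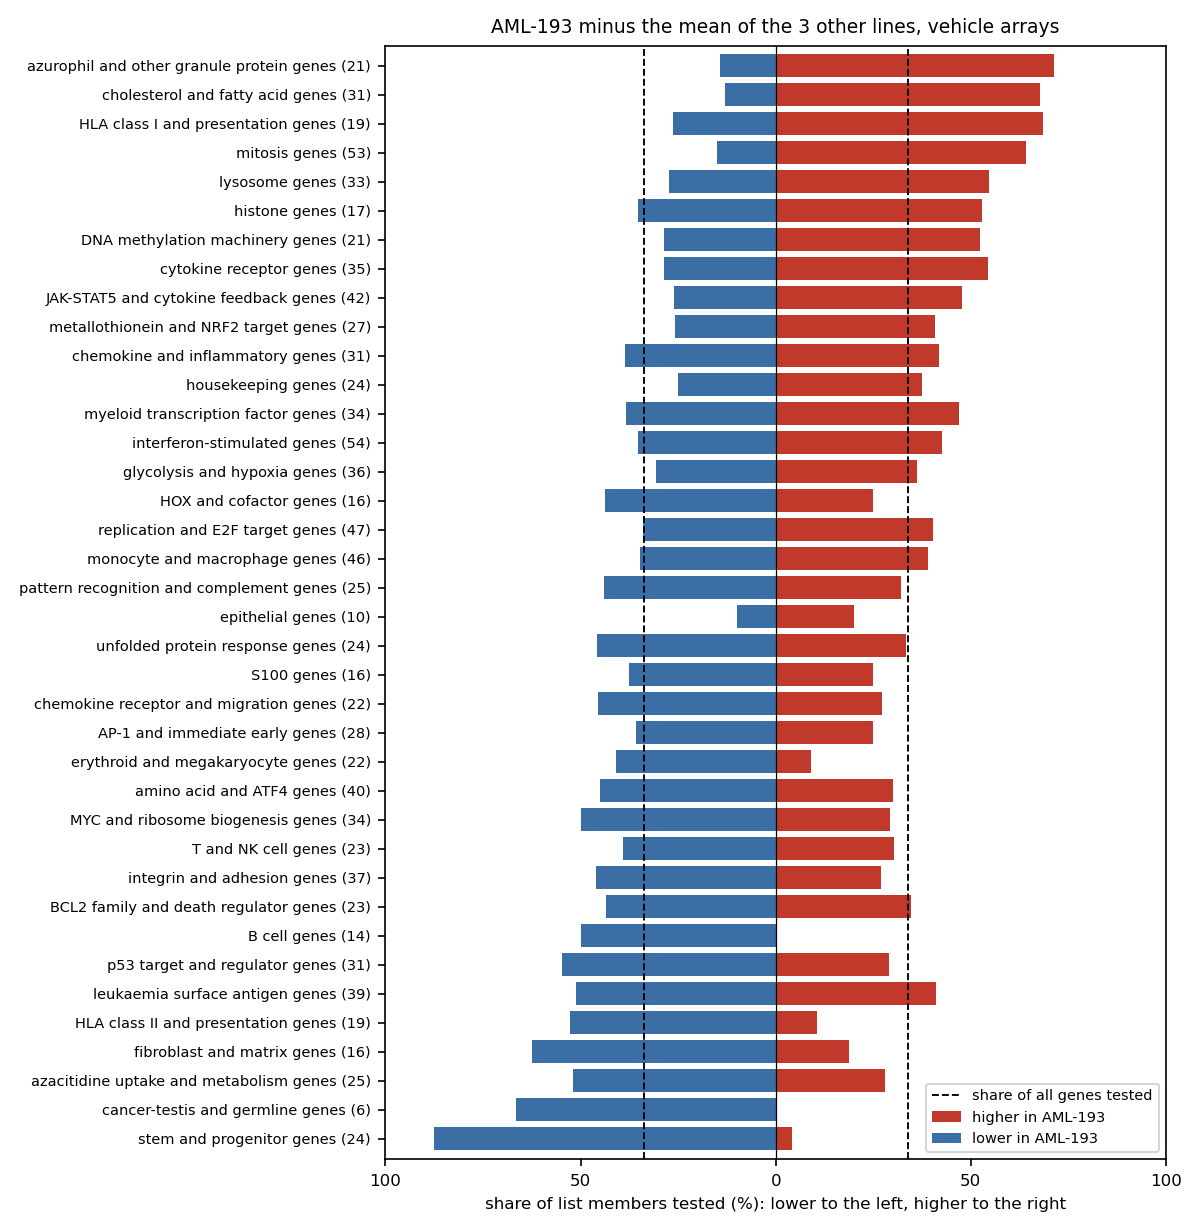
Share of the tested members of each of the 38 gene lists (vertical axis, number tested in brackets) that was higher (right, red) or lower (left, blue) in AML-193, in percent; dashed lines are the shares over all genes tested, 33.9% and 33.8%, and lists are ordered by median difference. Of the lists past the line on the right, granule, class I, cholesterol and mitosis genes reach furthest, and stem and progenitor genes reach furthest to the left.

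The remaining lists are given by their counts, to be read against the 33.9% and 33.8% of all genes. Of 22 erythroid and megakaryocyte genes 2 were higher and 9 lower, of 14 B cell genes 0 and 7, and of 10 epithelial genes 2 and 1. The B cell count of 0 is from limma's adjusted test, and at an unadjusted p under 0.05 it was 1. Fibroblast and matrix genes were higher in 3 of 16, which were SPARC, S100A6 and COL4A1, and lower in 10. COL4A1 had 8.99 and 8.89 in AML-193, against 6.11 and 5.86 in HNT-34, 5.94 and 5.97 in KG1a, and 6.12 and 6.21 in HL60. Glycolysis and hypoxia genes were higher in 13 of 36 and lower in 11, unfolded protein response genes in 8 and 11 of 24, and AP-1 and immediate early genes in 7 and 10 of 28. Histone genes were higher in 9 and lower in 6 of 17, pattern recognition and complement genes in 8 and 11 of 25, and housekeeping genes in 9 and 6 of 24, with a median of 0.11 for the last.

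The same contrast was taken on the 8 AZA arrays, which are separate samples. Of the 528 higher genes 524 kept their sign there and 514 were again called higher (30.7% of all genes were). Of the 369 lower genes 355 kept their sign and 336 were called lower (30.8%). The rule of at least 2-fold from every line was met again by 199 of the 528 and 147 of the 369, out of 276 (2.02%) and 219 (1.6%) genes that met it in the AZA arm. Treatment, the other order of RNA quality and chance in the choice of the largest differences all enter this comparison and cannot be told apart. All 40 leading genes kept their sign and their call. For AZU1 the difference was 5.27 on the AZA arrays and for S100A8 5.83, for F13A1 6.12, and for LAPTM4B -8.80. The gaps of S100A6 and MS4A3 were smaller with AZA, at 3.51 and 3.80. S100P, at -0.37, had nearly lost its gap, with AML-193 at 11.34 and 11.49 on the AZA arrays.

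**Figure D5:**
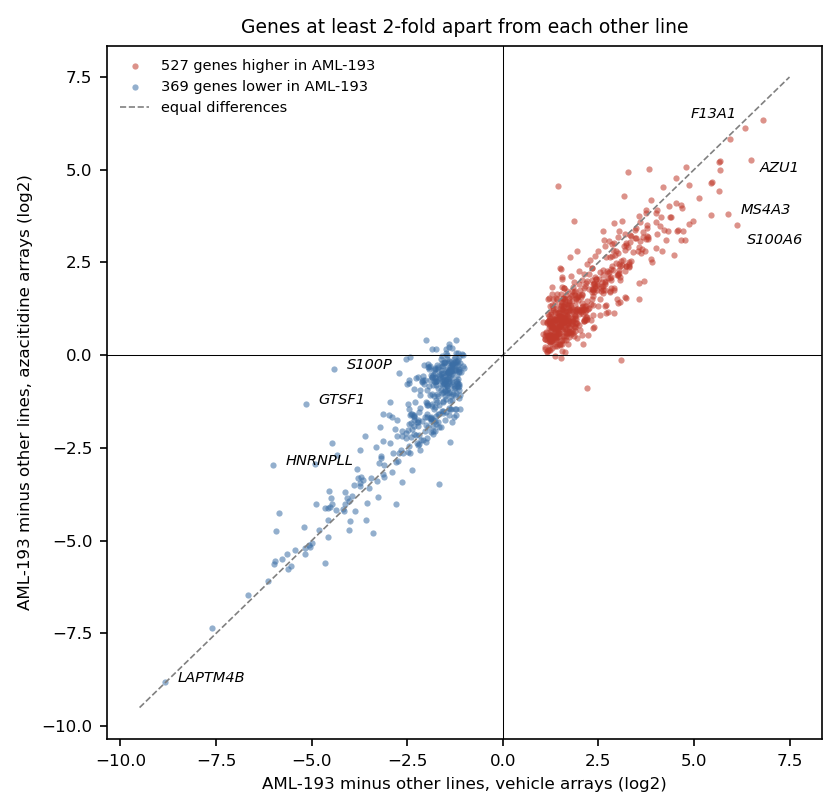
Difference between AML-193 and the mean of the other lines (log2) on the AZA arrays (vertical axis) against that on the vehicle arrays (horizontal axis) for 527 of the 528 higher (red) and all 369 lower (blue) genes; the dashed line marks equal differences, and 1 X-linked gene is left out. Most points keep their sign, and many lie nearer to 0 on the AZA arrays, with GTSF1, HNRNPLL and S100P far from the dashed line.

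Genes with several bright probe sets are described here on the same 8 arrays, which is no independent check. The probe set that placed a gene in its group is counted, and no share over all genes was taken. A probe set can be bright through the AML-193 arrays alone. Dim probe sets are left out, such as those of S100A6 at 0.39 and TFAP2A at 0.15. Of the 528 higher genes, 242 had at least 2 probe sets at or above the array median on at least 2 vehicle arrays. In 185 of these all such probe sets were higher in AML-193. Among the lower genes it was 184 of 231. At least a 2-fold difference in every bright probe set was found in 102 and 89. For the leading genes probe sets differed in size: S100A8 ran from 3.12 to 5.94, FYN from 1.54 to 4.86, BAG2 from -5.98 to -0.69 and MAP3K13 from -5.84 to -0.13. Probe sets of 1 gene can read different transcripts or different distances from the 3' end, and which of these applied was not tested. Of the 40 leading genes, 14 had a single probe set, among them AZU1, PRTN3, F13A1, UBE2E3 and MEST.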

How the data were processed

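The deposited values are log2 signals. The submitters' processing notes name affy and RMA, without version or order. Sorted values differed between arrays by at most 0.00404, the median was 6.73 and the range 3.26 to 15.3, and no further scaling was applied. Of 54675 probe sets, 62 were controls, 41091 had 1 gene symbol in the array annotation, 1801 several and 11721 none. Each of 19775 genes was represented by its probe set of highest mean on the 8 vehicle arrays, and 13656 genes at or above the array median on at least 2 of these arrays were tested.

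A mean for each line was fitted to the 8 vehicle arrays in limma 3.58.1 (R 4.3.3), with 4 residual and 4.15 prior degrees of freedom. Each adjusted p is from limma with Benjamini-Hochberg adjustment over all 13656 genes. The AZA interaction was fitted on 16 arrays. The members, the 38 gene lists and the rule for named genes were chosen with earlier results of these data known. The rule named the 20 largest differences in each direction, up to 4 called members per list, AZU1, S100A8 and F13A1, and members on which a small count turns. MPO, ELANE, CRISP3, CD34, SPI1, CEBPA, CSF2RA, CSF2RB, DCK, UCKL1, SLC29A1, DNMT1, DNMT3B, ITGA5 and CD14 lie outside it and were named after their values were seen. The fit was tested on simulated data. Figures were drawn with matplotlib 3.10.9. Alternatives changed the filter, the probe set choice, the scaling, the variance model, the arrays used and the RNA covariate. There are no detection calls, and having 2 arrays per line limits the precision.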

Additional observations from a re-analysis of the deposited data

Results flagged for a closer look

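The difference between AML-193 and the other lines was tested for a change with azacitidine (AZA) in each of the 40 leading genes, by the interaction of line and treatment in limma over 16 arrays. It changed in 21 of the 40, at an adjusted p under 0.05, where 41.8% of all genes tested did so. In all 21 the gap was smaller with AZA. The genes had been picked for a large gap on the vehicle arrays, so a smaller one on other arrays is partly built into the choice. The 3' minus 5' control signal averaged 1.27 with vehicle and 0.20 with AZA in AML-193, and 0.04 and 0.72 in HL60. Treatment and RNA quality can therefore not be told apart in the changes below.

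Among the 15 higher genes the changes of the difference were -2.60 ± 0.18 for S100A6, -2.09 ± 0.09 for MS4A3, -1.67 ± 0.13 for SLPI, -1.67 ± 0.25 for LOC729732, -1.36 ± 0.13 for HOMER3, -1.36 for SV2A, -1.31 ± 0.17 for FYN, -1.22 ± 0.17 for AZU1 and -1.21 ± 0.16 for TSPAN2 (log2, ± SE). They were -0.91 for DLX4, -0.82 for BEX5, -0.81 for CEACAM6, -0.69 for TFAP2A, -0.45 for TSPOAP1 and -0.44 for PRTN3. S100A6 had 13.18 and 13.23 in AML-193 with AZA, against 8.48 and 8.47 in HNT-34, 9.84 and 9.78 in KG1a and 10.65 and 10.91 in HL60, so the level in AML-193 stayed near that with vehicle while the other lines were higher than with vehicle. For SLPI the HL60 arrays had 10.90 and 10.84 with AZA and 7.69 and 7.64 with vehicle. For MS4A3 the KG1a arrays had 11.01 and 10.86 with AZA and 7.61 and 7.49 with vehicle.

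Among the 6 lower genes the changes were 3.85 ± 0.12 for GTSF1, 3.05 ± 0.13 for HNRNPLL, 1.58 ± 0.11 for MAP3K13, 1.20 ± 0.16 for BCL11A, 0.56 for FZD6 and 0.30 for BTG3. In the first 3 the AML-193 level itself was higher with AZA. In AML-193, GTSF1 had 10.14 and 10.28 with AZA, against 5.45 and 5.46 with vehicle. HNRNPLL had 7.92 and 7.97 with AZA, against 5.10 and 4.85 with vehicle. MAP3K13 had 6.39 and 6.45 with AZA, against 4.88 and 5.12 with vehicle. BCL11A stayed near its vehicle level in AML-193 and was lower in the other lines with AZA.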

How the results depend on the processing

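The count of genes that differed from the mean of the other lines was 9241. With the 3' minus 5' signal as covariate it was 3080. That measure differs mostly between AML-193 and the rest and between the 2 AML-193 arrays, so this fit has little left to tell line and RNA quality apart. The counts of genes set apart were 528 and 369, and the covariate gave 427 and 303, of which 316 and 196 were the same genes. On the AZA arrays they were 276 and 219, and with the AML-193 AZA arrays against the other vehicle arrays 243 were lower; the cause was not tested. Leaving out 1 array at a time gave 8328 to 9350 differing genes, 496 to 563 higher and 329 to 447 lower. The other alternatives stayed within 1.5 times of each count. The 40 leading genes kept direction and call in all 760 comparisons with alternatives. They were picked for large gaps on the vehicle arrays, which most alternatives reuse, so this is largely built into the choice. Of 3240 comparisons over 171 named genes, 3194 were unchanged in direction and call, 35 lost the call and 11 changed sign. Those 11 were LY96 (1.01 on the AZA arrays, and 1.32 with the AML-193 AZA arrays against the other vehicle arrays), EDEM1 (0.038) and POLR2A (-0.062) on the AZA arrays, VIM (0.69), BIK (0.031), CTSH (0.51) and MAGEB2 (1.55) with the AML-193 AZA arrays against the other vehicle arrays, IGLL1 (0.49) and PAGE5 (0.36) with the covariate, and ERAP1 (-0.16) with the mean over its probe sets. No paired analysis was possible because the labels give the arrays no replicate numbers.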

Other observations

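Differences between AML-193 and the other lines were not spread evenly over the chromosomes. This was looked at after the values were seen and is a description. On chromosome 6, 61 of 687 tested genes were higher than in every other line by at least 2-fold, which is 8.88% against 3.87% of all genes, and the chromosome's median difference was 0.25 (0.29 on the AZA arrays). On chromosome 13 it was 18 of 246 genes (7.32%), with a median of 0.18, and on chromosome 3, 43 of 742 (5.8%). Copy number was not analysed here.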
